A study of Mus musculus with 3 samples.

Results

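The genes described here are 7 genes of MHC class II antigen presentation in the mouse: H2-Aa, H2-Ab1 and H2-Eb1, H2-DMa and H2-DMb1, Cd74, and Ciita. They were chosen by symbol, each matched 1 row of the count matrices, and they are 7 of the 55450 genes counted. Together they held 139637 of the 281318491 unique molecular identifiers (UMIs, each standing for 1 captured transcript) in the cells used. The study asked how blood exosomes affect a testis damaged by busulfan, a drug that alkylates DNA, depletes dividing germ cells and here served as a model of azoospermia. Every mouse testis library therefore came from a busulfan-treated group. The dEXO+Busulfan library came from the group given blood exosomes of mice with a disturbed gut microbiota, the EXO+Busulfan library from the group given blood exosomes of wild-type mice, and the PBS+Busulfan library from the group given the vehicle, phosphate-buffered saline. These are called dEXO, EXO and PBS. Strain, age and how many animals were pooled are not given in the sources used here, and the extraction text speaks of aorta where the sample labels say testis.

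There was 1 library per group, so no difference between groups could be tested. The intervals given are 95% exact intervals that cover counting error only, and any difference between libraries can be a difference between animals or preparations. The libraries held 96655663 UMIs in 9760 barcodes in dEXO, 91787154 in 10228 in EXO and 97253862 in 5514 in PBS, with median UMIs per barcode of 2852, 3144.5 and 7708. After filters 8947, 9860 and 5267 cells were used. Each pair of libraries shared 19 cell barcodes and no barcode occurred in all 3. Clustering without the class II genes gave 33 clusters. Of these, 24 carried the markers of 1 of 12 classes of testis cells, including Leydig, Sertoli and germ cells, and 9 clusters with 4707 cells stayed unnamed.

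MHC class II molecules display peptides from ingested proteins to CD4 T cells. An alpha and a beta chain form the peptide-binding groove. In the endoplasmic reticulum the invariant chain, encoded by Cd74, occupies that groove. In endosomes cathepsins cut the invariant chain down and the DM heterodimer (H2-DMa and H2-DMb1) exchanges its last fragment for a peptide. Transcription is switched on by CIITA, the coactivator encoded by Ciita, which binds no DNA itself but docks on factors bound to the X and Y boxes of class II promoters. In the testis, an immune-privileged organ, interstitial macrophages and the macrophages around the tubules are known to differ in their class II level.

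Promoters are shown for 4 of the genes whose shares differed between immune and germ cells in the results that follow. The sequences are from RefSeq on GRCm38.p6, 250 bases before to 50 after an annotated start, written 5′ to 3′ on the strand of the gene. Capitals mark the Y box ATTGG on either strand (CCAAT when reversed), the core CTAGNAAC of the X box and the cAMP element TGACGTCA, a sequence that can form part of the X box region. The X box and cAMP letters were chosen after these promoters had been read.
H2-Aa, chr17:34287774-34288073, minus strand: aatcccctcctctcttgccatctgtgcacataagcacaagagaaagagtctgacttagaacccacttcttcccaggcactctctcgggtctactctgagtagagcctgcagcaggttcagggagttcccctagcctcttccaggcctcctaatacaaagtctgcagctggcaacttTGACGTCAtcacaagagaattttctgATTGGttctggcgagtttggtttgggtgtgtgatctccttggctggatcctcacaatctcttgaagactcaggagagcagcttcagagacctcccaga
H2-Eb1, chr17:34305617-34305916, plus strand: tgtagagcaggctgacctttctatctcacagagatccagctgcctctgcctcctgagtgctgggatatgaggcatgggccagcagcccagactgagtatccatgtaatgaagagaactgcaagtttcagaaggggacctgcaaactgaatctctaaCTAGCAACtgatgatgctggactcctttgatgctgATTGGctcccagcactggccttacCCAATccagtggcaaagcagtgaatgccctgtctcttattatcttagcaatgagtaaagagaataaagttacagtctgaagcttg
H2-DMb1, chr17:34152941-34153240, plus strand: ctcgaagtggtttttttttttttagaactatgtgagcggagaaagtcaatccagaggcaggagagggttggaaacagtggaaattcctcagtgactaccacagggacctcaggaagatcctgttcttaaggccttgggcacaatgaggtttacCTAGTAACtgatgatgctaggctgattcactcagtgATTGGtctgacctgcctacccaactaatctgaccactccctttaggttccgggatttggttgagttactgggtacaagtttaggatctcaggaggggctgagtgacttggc
H2-DMa, the first start, chr17:34122582-34122881, plus strand: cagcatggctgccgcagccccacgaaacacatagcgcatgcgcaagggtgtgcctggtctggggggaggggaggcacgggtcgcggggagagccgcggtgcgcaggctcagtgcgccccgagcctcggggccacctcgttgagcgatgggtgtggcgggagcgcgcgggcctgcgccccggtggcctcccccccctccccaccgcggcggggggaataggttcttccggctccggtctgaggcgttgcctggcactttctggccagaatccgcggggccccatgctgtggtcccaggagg
H2-DMa, the second start, chr17:34125268-34125567, plus strand: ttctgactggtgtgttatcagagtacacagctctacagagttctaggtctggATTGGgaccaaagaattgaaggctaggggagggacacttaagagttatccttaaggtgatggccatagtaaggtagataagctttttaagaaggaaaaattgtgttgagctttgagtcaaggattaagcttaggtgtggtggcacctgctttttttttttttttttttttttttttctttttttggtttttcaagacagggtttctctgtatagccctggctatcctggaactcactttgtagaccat

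The X box core began at position -94 from the start of H2-Eb1 and at -97 from that of H2-DMb1, and in both genes an ATTGG followed, at -59 and at -61. Among 32851 promoters of the same length, on both strands, 1188 held the X box core (3.62%), 12289 held ATTGG (37.4%), and 444 held both (1.35%). H2-Aa held TGACGTCA at -74, as did 588 promoters (1.79%), and ATTGG at -48. At H2-DMa neither of the starts shown had the X box core in its window, and the second had an ATTGG at -198. Only the starts shown were searched, while the GENCODE annotation holds 8 start positions for this gene. The window of the first H2-DMa start overlaps the start of Brd2, a chromatin reader gene transcribed from the opposite strand. Promoters of H2-Ab1, Ciita and Cd74 are not shown. These matches describe letters only.

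All of the genes but Cd74 and Ciita lie in the MHC on chromosome 17. On GRCm38 with the GENCODE vM21 annotation, H2-DMa spans chr17:34119541-34139101 and H2-DMb1 chr17:34153072-34160230, followed by H2-Ab1 (chr17:34257689-34269419), H2-Aa (chr17:34282744-34287823) and H2-Eb1 (chr17:34305867-34316674). H2-Aa is on the minus strand and the others are on the plus strand. Ciita is at chr16:10480059-10528418 and Cd74 at chr18:60803848-60812652. H2-DMa overlaps Brd2 and 2 short genes on the opposite strand, H2-Eb1 overlaps the antisense gene Gm20513, and Ciita overlaps Dexi. On the same strand H2-DMa overlaps CR974462.3 and Cd74 overlaps Mir5107, pairs that strand alone could not separate. No source used here says how strand was handled in the counting, so reads of overlapping pairs may not be fully separated.

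Most class II transcripts lay in very few cells. Macrophage-like and dendritic-like cells were 178 of 8947 cells in dEXO, 217 of 9860 in EXO and 137 of 5267 in PBS. They held 68.2% of the class II UMIs in dEXO (67.7 to 68.6), 74.5% in EXO (74.2 to 74.9) and 70.05% in PBS (69.6 to 70.5). Macrophage-like cells alone held 61.9% in dEXO, 63.8% in EXO and 52.9% in PBS, and dendritic-like cells 6.25%, 10.8% and 17.1%. The dendritic-like class had only 7 cells in dEXO, 16 in EXO and 10 in PBS, fewer than the 20 set beforehand for giving a level. In dEXO 1 of its cells held 22.2% of its class II UMIs. Its levels are given all the same, and their intervals do not cover differences between so few cells. A further 19.7% in dEXO, 19.5% in EXO and 21.3% in PBS lay in unnamed clusters that mixed macrophage markers with those of another class. The largest of them, an F13a1-led cluster that carried all 10 macrophage markers but scored for Leydig markers too, held 14.5%, 11.1% and 12.8%. It is not counted among the macrophages.

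**Figure D1:**
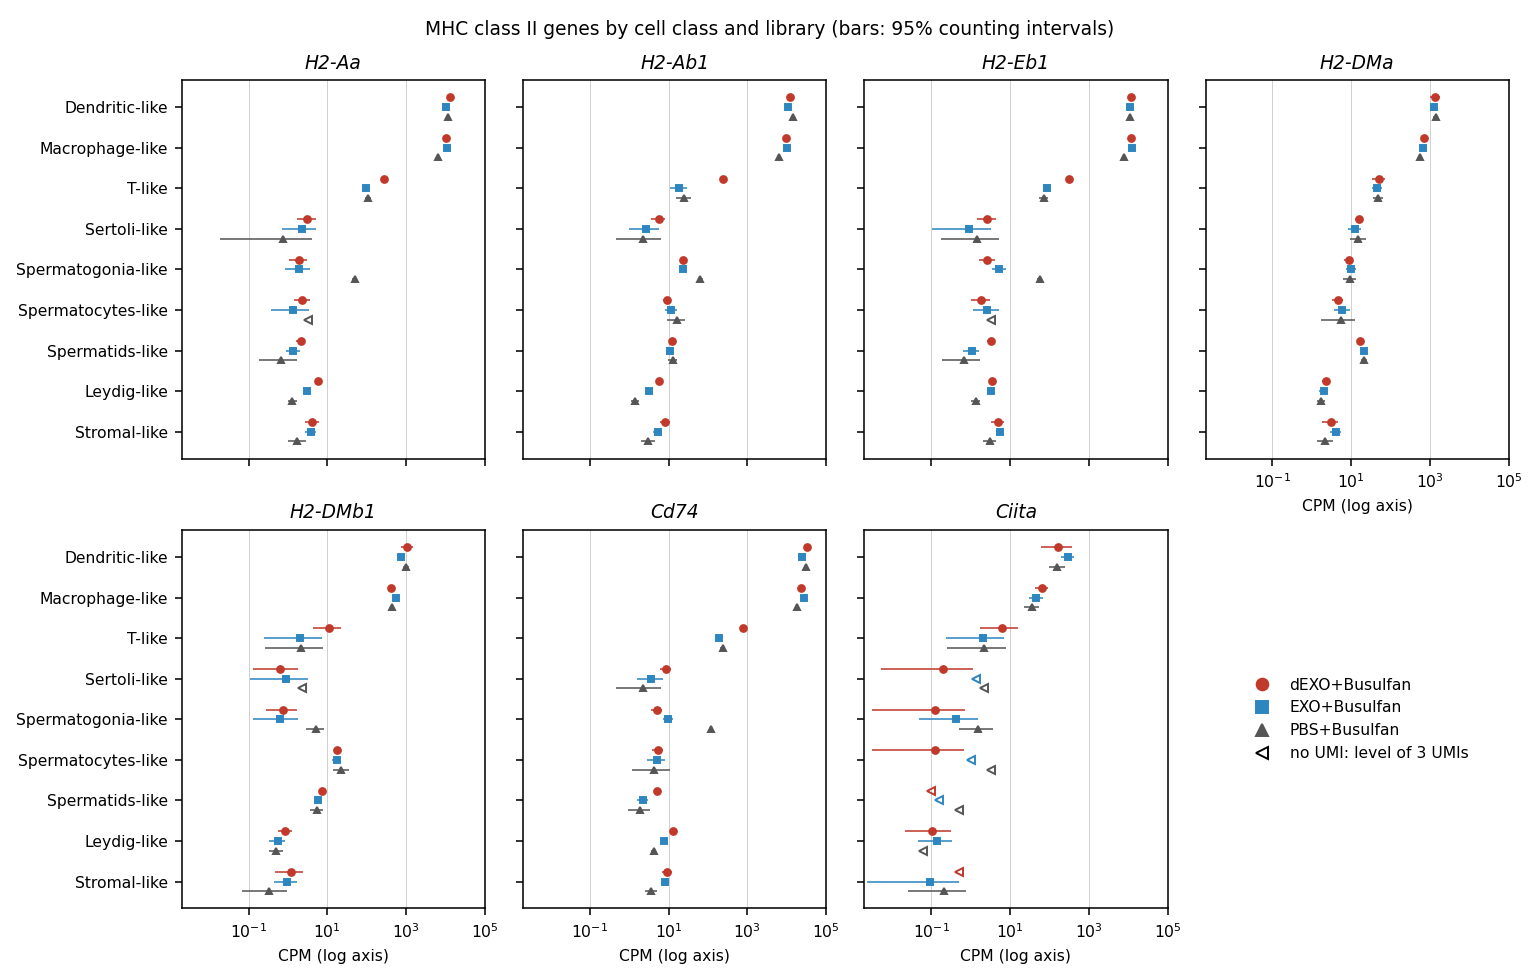
Level of each class II gene, in CPM on a log axis, in 9 cell classes of the dEXO, EXO and PBS libraries. Points are summed UMIs of a class and library with 95% counting intervals, and open triangles mark the level of 3 UMIs where none was found; dendritic-like and macrophage-like cells lie far to the right of the other classes, and the spermatogonia-like PBS points away from the other libraries rest on 1 cell that held 878 of 959 class II UMIs.

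The peptide-binding chains and the invariant chain were highest in dendritic-like and macrophage-like cells in every library. H2-Aa, the alpha chain of I-A, was at 12929 UMIs per 1000000 UMIs of the class and library (CPM) in dEXO, 10493 in EXO and 11700 in PBS dendritic-like cells. In macrophage-like cells it was at 10281 CPM in dEXO, 10600 in EXO and 6562 in PBS. H2-Ab1, its beta chain, followed at 11849, 10990 and 13984 CPM in dendritic-like cells of dEXO, EXO and PBS. It was at 9352, 10335 and 6370 CPM in macrophage-like cells of the same libraries. The order of the 2 classes was therefore not fixed for these chains: in EXO their H2-Aa intervals overlapped (9850 to 11167 CPM in dendritic-like and 10325 to 10880 CPM in macrophage-like cells), whereas in dEXO and PBS the dendritic-like interval was the higher.

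H2-Eb1, the beta chain of I-E, was the most abundant chain of the macrophage-like cells, at 11964 CPM in dEXO, 12886 in EXO and 7679 in PBS. In dendritic-like cells it was at 11906, 11254 and 10969 CPM. The partner of H2-Eb1 is annotated in these files as a pseudogene, H2-Ea-ps, and had 1 UMI in dEXO, 0 in EXO and 1 in PBS over all cells. In several laboratory strains, C57BL/6 among them, that alpha chain gene carries a deletion and no I-E reaches the cell surface; the strain here is unknown.

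Cd74 was the most abundant of the genes in both classes, at 31712 CPM in dEXO, 23617 in EXO and 30328 in PBS dendritic-like cells, and at 23278, 26585 and 17810 CPM in macrophage-like cells. Because each UMI counts 1 transcript end, these shares do not depend on transcript length. In macrophage-like cells Cd74 made up 41.5% of the class II UMIs in dEXO, 43.1% in EXO and 45.1% in PBS, and H2-Eb1 21.3%, 20.9% and 19.5%.

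The DM genes ran at far lower levels than the chains they serve. H2-DMa was at 1364 CPM in dEXO, 1236 in EXO and 1386 in PBS dendritic-like cells, and at 704, 679 and 561 CPM in macrophage-like cells. H2-DMb1 was at 1051, 740 and 983 CPM in dendritic-like cells, and at 415, 544 and 434 CPM in macrophage-like cells. For both genes the dendritic-like level was above the macrophage-like interval in every library, on 7 dendritic-like cells in dEXO, 16 in EXO and 10 in PBS. For H2-DMb1 in EXO the intervals of the classes overlapped. H2-DMa made up 1.92% of the dendritic-like class II UMIs in dEXO, 2.11% in EXO and 1.99% in PBS, against 1.26%, 1.10% and 1.42% in macrophage-like cells.

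Ciita was the rarest of the 7 genes. It had 6 UMIs in dEXO, 28 in EXO and 19 in PBS dendritic-like cells (170, 296 and 160 CPM), and 29, 25 and 23 UMIs in macrophage-like cells (65.7, 47.0 and 35.5 CPM). In EXO and PBS the dendritic-like interval lay above the macrophage-like interval, and in dEXO the intervals overlapped (62.6 to 371 CPM in dendritic-like and 44.0 to 94.3 CPM in macrophage-like cells). Over all cells Ciita had 56 UMIs in dEXO, 77 in EXO and 82 in PBS, so its differences between libraries are barely resolved at this depth.

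Macrophage-like cells were of 2 kinds that differed in class II, although no class II gene was used to form the clusters. Their larger cluster, which carried all 10 macrophage markers and had Mgl2, a lectin gene, behind H2-Eb1 at the head of its leading genes, held 145 cells in dEXO, 173 in EXO and 79 in PBS. The smaller, led by Folr2, F13a1, Cd163, Cbr2 and Stab1, genes of resident scavenging macrophages, held 26, 28 and 48 cells and also carried all 10 markers. In the median Mgl2-led cell 7.17% of all UMIs were from class II genes in dEXO, 7.24% in EXO and 7.19% in PBS. In the median Folr2-led cell the share was 0.123%, 0.102% and 0.0516%.

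**Figure D2:**
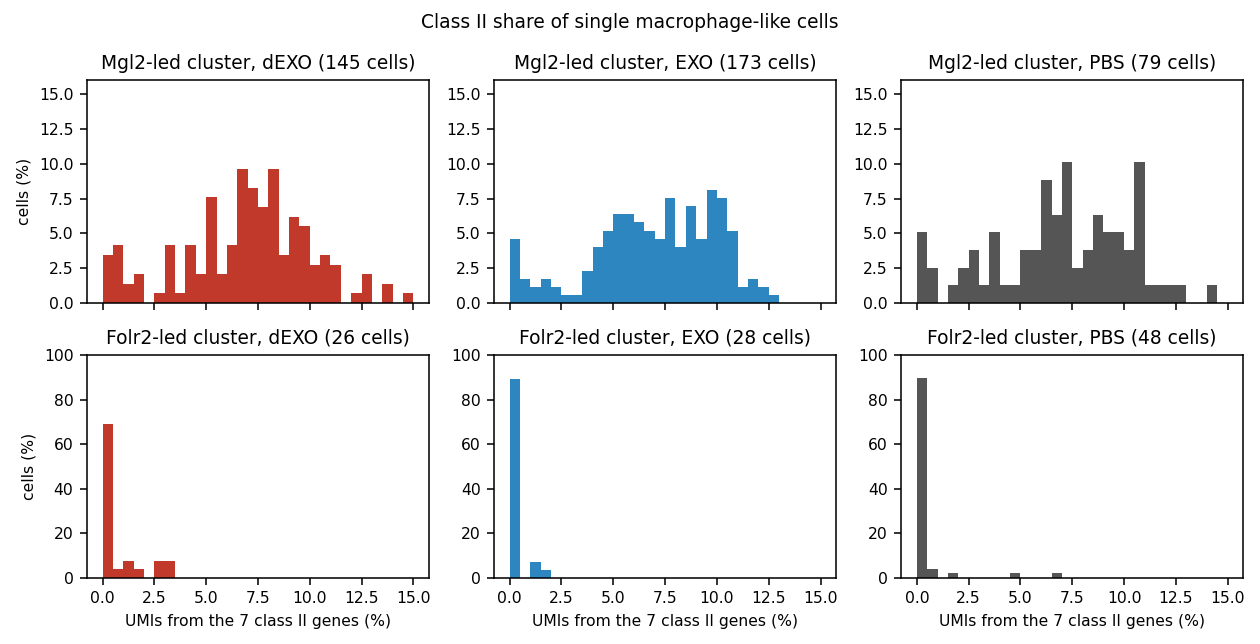
Percent of a cell's UMIs that came from the 7 class II genes, for single macrophage-like cells of the Mgl2-led cluster (145 dEXO, 173 EXO and 79 PBS cells) and of the Folr2-led cluster (26, 28 and 48 cells); bars give the percent of cells in each bin. The Mgl2-led cells spread around medians of 7.17%, 7.24% and 7.19%, and most Folr2-led cells lie in the lowest bin.

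The overlap between both kinds was small but present. Of the Mgl2-led cells, 11 in dEXO, 11 in EXO and 6 in PBS were under 1% class II. Of the Folr2-led cells, 2 in dEXO, 0 in EXO and 2 in PBS reached 3%. Clusters were drawn from all other genes of the same cells, so this contrast is a description.

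Taken as a class, macrophage-like cells of dEXO and of EXO had more class II transcripts than those of PBS. The 7 genes summed to 56060 CPM in dEXO, 61676 in EXO and 39452 in PBS. The log2 ratio was 0.51 for dEXO to PBS (0.48 to 0.53), 0.64 for EXO to PBS (0.62 to 0.67) and -0.14 for dEXO to EXO (-0.16 to -0.11), while the median gene of the class was at 0.0037, -0.099 and 0.096. Against PBS, H2-Aa was at 0.65 in dEXO and 0.69 in EXO, H2-Ab1 at 0.55 and 0.70, H2-Eb1 at 0.64 and 0.75, and Cd74 at 0.39 and 0.58. H2-DMa was at 0.33 (0.11 to 0.55) and 0.28 (0.062 to 0.49). H2-DMb1 was at -0.067 in dEXO (-0.34 to 0.21), an interval that includes no difference, and at 0.32 in EXO (0.083 to 0.57). Ciita was at 0.89 in dEXO (0.046 to 1.74), and had fewer than 50 UMIs over EXO and PBS.

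No class II gene differed 2-fold in this class in any pair. Of all genes with 50 or more UMIs over a pair, 6.4% were at least 2-fold higher and 4.86% at least 2-fold lower in dEXO than in PBS. For EXO to PBS these shares were 1.23% and 5.43%, and for dEXO to EXO 5.41% and 0.946%.

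The make-up of the class moved with this result. The shares given next leave out the unnamed F13a1-led cluster of 99 cells in dEXO, 87 in EXO and 61 in PBS, and counting it would lower them. The Mgl2-led cluster was 84.8% of macrophage-like cells in dEXO (78.5 to 89.8), 86.1% in EXO (80.5 to 90.5) and 62.2% in PBS (53.2 to 70.7). Within that cluster alone the 7 genes summed to 62458 CPM in dEXO, 67533 in EXO and 68058 in PBS, with overlapping intervals in EXO and PBS. There the log2 ratio was -0.12 for dEXO to PBS (-0.15 to -0.10), -0.011 for EXO to PBS (-0.035 to 0.013) and -0.11 for dEXO to EXO (-0.14 to -0.089). The 10 macrophage markers summed to 19318 CPM in dEXO, 19179 in EXO and 19069 in PBS in the same cells. The higher class II level of the whole macrophage-like class in dEXO and EXO was thus not seen within its main cluster.

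Gene by gene, the Mgl2-led cells of dEXO were below those of PBS in H2-DMb1 and Cd74. H2-DMb1 was at 445 CPM in dEXO, 590 in EXO and 678 in PBS, a log2 ratio of -0.61 for dEXO to PBS (-0.89 to -0.32), -0.20 for EXO to PBS (-0.45 to 0.051) and -0.41 for dEXO to EXO (-0.69 to -0.13). Cd74 was at 25910 CPM in dEXO, 29093 in EXO and 30961 in PBS, with log2 ratios of -0.26, -0.090 and -0.17 for the same pairs. H2-Ab1 was at -0.072 for dEXO to PBS (-0.14 to -0.0090), and at -0.056 (-0.12 to 0.0086) without the cell with the most class II UMIs in each library. The log2 ratios of H2-Aa and H2-Eb1 in this cluster ran between -0.070 and 0.082 over the 3 pairs. No class II gene was past 2-fold there in any pair. Of all genes measured, 8.3% were at least 2-fold higher and 2.77% at least 2-fold lower in dEXO than in PBS. For EXO to PBS these shares were 2.46% and 1.82%, and for dEXO to EXO 6.02% and 1.11%.

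The Folr2-led cells went differently. Their summed class II level was 9314 CPM in dEXO, 3203 in EXO and 2934 in PBS. The log2 ratio was 1.67 for dEXO to PBS (1.50 to 1.83), 0.13 for EXO to PBS (-0.13 to 0.38) and 1.54 for dEXO to EXO (1.28 to 1.81). Cd74 was at 4045 CPM in dEXO, 1550 in EXO and 1020 in PBS, and H2-Aa at 2201, 599 and 570 CPM. H2-DMa stood at 320, 207 and 264 CPM with overlapping intervals. Of these cells 19 of 26 in dEXO, 25 of 28 in EXO and 45 of 48 in PBS were under 1% class II. Without the cell with the most class II UMIs in each library the sums were 7455, 2262 and 1723 CPM. The unnamed F13a1-led cluster also had Folr2 and Stab1 among its leading genes, and scored for Leydig markers too. It held 99 cells in dEXO, 87 in EXO and 61 in PBS, with class II sums of 3099, 3137 and 2278 CPM. The dEXO excess over EXO was thus not seen in that larger cluster. Whether the Folr2-led cluster of dEXO took in cells of the Mgl2-led kind was not tested.

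**Figure D3:**
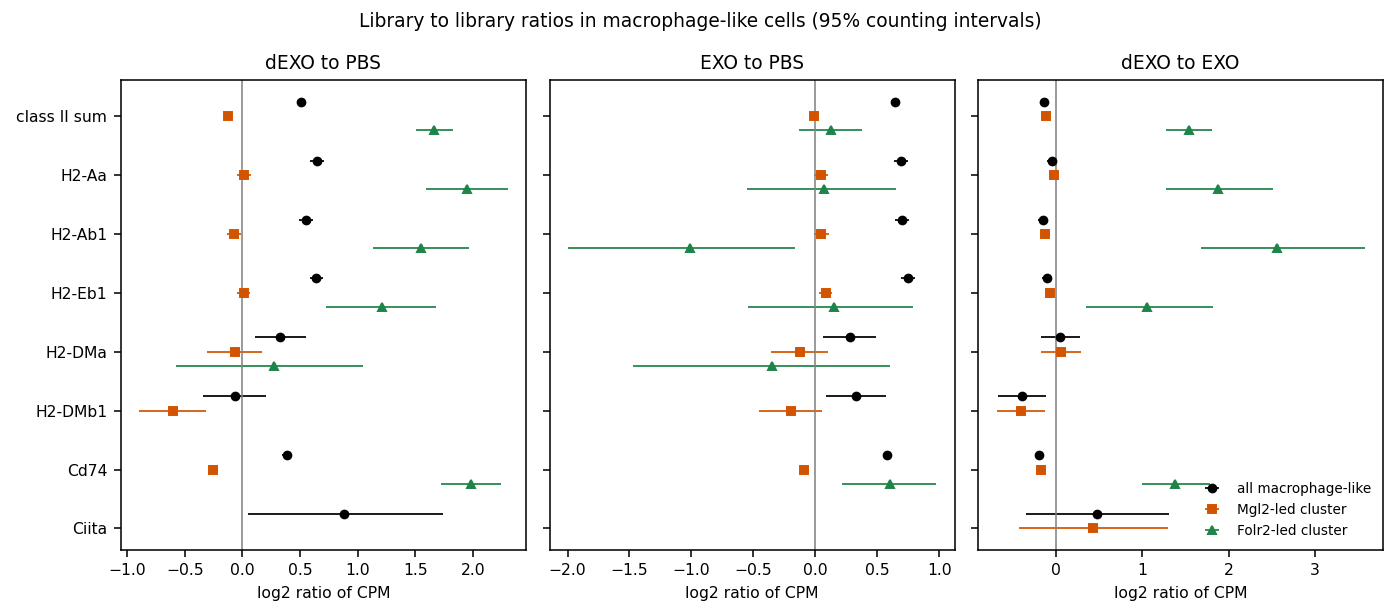
Log2 ratios of CPM between libraries for the class II sum and each gene with 50 or more UMIs over the pair, in all macrophage-like cells and in the Mgl2-led and Folr2-led clusters, with 95% counting intervals. For dEXO to PBS the sum is at 0.51 in the class, -0.12 in the Mgl2-led cluster and 1.67 in the Folr2-led cluster.

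Genes that act with class II were read in the same cells by lists. Of 7 antigen proteases and related enzymes, each with 50 or more UMIs, none was 2-fold higher and 1 was 2-fold lower in dEXO than in PBS macrophage-like cells, with a median log2 ratio of -0.67, where 4.86% of all genes were 2-fold lower and the median gene was at 0.0037. For EXO to PBS 2 of 7 were 2-fold lower and the median was -0.65, where 5.43% of all genes were lower and the median gene was at -0.099. In the Mgl2-led cluster their medians were -0.11 and -0.065, close to the median of all genes measured there, at 0.013 and -0.0078. Ctsd, a lysosomal aspartic protease, was at 149 CPM in dEXO, 102 in EXO and 423 in PBS over all macrophage-like cells. Ctsb, a cysteine protease, was at 904, 822 and 1800 CPM. In the Mgl2-led cluster alone Ctsd ran the other way, at 108 CPM in dEXO, 72.5 in EXO and 57.9 in PBS, a log2 ratio of 0.90 for dEXO to PBS (0.11 to 1.73). In the Folr2-led cluster it was at 452, 393 and 890 CPM. Ctsb was at 608, 613 and 711 CPM in the Mgl2-led cluster. Ctss, the cathepsin that trims the invariant chain in antigen-presenting cells, differed by 0.069 for dEXO to PBS and -0.065 for EXO to PBS within the Mgl2-led cluster (intervals -0.076 to 0.21 and -0.20 to 0.073).

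Of 10 regulators of class II transcription, only Spi1 and Irf8 had 50 UMIs in the Mgl2-led cells for each pair, so the X and Y box factors could not be compared. Spi1, the myeloid factor PU.1, was at 384 CPM in dEXO, 429 in EXO and 548 in PBS. Its log2 ratio was -0.52 for dEXO to PBS (-0.83 to -0.20) and -0.36 for EXO to PBS (-0.64 to -0.072). Irf8, an interferon regulatory factor of myeloid cells, was at 175, 211 and 273 CPM, with ratios of -0.64 (-1.11 to -0.18) and -0.37 (-0.78 to 0.041). In the same cells the class II sum was at -0.12 for dEXO to PBS and -0.011 for EXO to PBS.

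Among 10 genes of the interferon gamma pathway, the strongest known inducer of Ciita, 6 were measured in Mgl2-led cells for dEXO to PBS and 5 for each other pair. For dEXO to PBS their median log2 ratio was 0.033, for EXO to PBS -0.0016 and for dEXO to EXO -0.067. Against PBS 1 of 6 was at least 2-fold lower in dEXO and 1 of 5 in EXO (2.77% and 1.82% of all genes). For dEXO to EXO 1 of 5 was at least 2-fold higher, where 6.02% of all genes were, and 2 of 5 had intervals above 0. Cxcl9, an interferon-induced chemokine gene, had 8 UMIs in dEXO, 20 in EXO and 225 in PBS. It was found in 4, 3 and 5 cells, and 147 of the PBS UMIs came from 1 cell. Irf1, an interferon-induced transcription factor gene, had 38 UMIs in dEXO, 25 in EXO and 32 in PBS. It was higher in dEXO than in EXO, with a log2 ratio of 0.92 (0.15 to 1.71), and its interval for dEXO to PBS includes 0. The median of all genes measured in these cells was 0.076 for dEXO to EXO.

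Of the 5 genes for class II turnover and interleukin 10 signalling found in the count matrices, 2 were measured in Mgl2-led cells. Cd83, which shields class II from removal, had 14 UMIs in dEXO, 36 in EXO and 37 in PBS, and 19 of the PBS UMIs were in 1 cell. Of 8 genes for co-stimulation and recognition only Cd86, a ligand of CD28, was measured, at log2 ratios of -0.28 for dEXO to PBS (-0.89 to 0.33) and -0.25 for EXO to PBS (-0.82 to 0.32). Of the class II genes outside the 7, H2-Oa and H2-Ob, the DO chains that restrain DM, were found in dendritic-like cells. H2-Oa was there at 227 CPM in dEXO, 106 in EXO and 134 in PBS, and H2-Ob at 199, 116 and 168 CPM, on 7 to 20 UMIs a library and near the level of Ciita. Over all cells they had 23, 31 and 49 UMIs and 23, 38 and 52 UMIs. H2-DMb2, another DM beta gene close to H2-DMb1 in sequence, had 23, 12 and 33 UMIs over all cells, and H2-Eb2 6, 0 and 1.

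T-like cells carried class II transcripts mostly in a few cells. Over 317 cells in dEXO, 417 in EXO and 249 in PBS the sums were 1661, 438 and 493 CPM. In dEXO 9 cells, in EXO 2 and in PBS 3 had at least 1% class II UMIs, and they held 93.6%, 77.9% and 84.4% of the class II UMIs. The other T-like cells were at 109 CPM in dEXO (84.7 to 139), 97.6 in EXO (79.1 to 119) and 78.6 in PBS (61.5 to 99.0), with overlapping intervals. The macrophage markers in T-like cells summed to 212 CPM in dEXO, 42.2 in EXO and 43.8 in PBS, so dEXO was also the highest in these; their part in the class II level was not tested. H2-DMa was different from the chains here: without those cells it was still at 37.5, 41.7 and 43.7 CPM.

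Germ cells had low class II levels with another make-up. In the Tex36-led cluster of spermatids-like cells (390 cells in dEXO, 241 in EXO and 48 in PBS), H2-DMa was at 13.6 CPM in dEXO (12.3 to 14.99), 17.6 in EXO (15.7 to 19.7) and 19.4 in PBS (15.8 to 23.5). H2-Ab1 was at 11.5, 10.6 and 13.1 CPM. H2-DMb1 was at 7.74, 6.16 and 5.72 CPM. H2-Aa, the partner of H2-Ab1, and Cd74 were below these in each library once the cell with the most class II UMIs was left out, with Cd74 at 2.04, 1.48 and 1.89 CPM. Ciita had 0 UMIs in spermatids-like cells of every library, with intervals that reach up to 0.122 CPM in dEXO, 0.196 in EXO and 0.629 in PBS.

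Leydig-like cells, the steroid-making cells of the interstitium and not known for class II, served as the level to be read against. There H2-DMa was at 2.31 CPM in dEXO, 1.98 in EXO and 1.71 in PBS, H2-Ab1 at 5.55, 3.13 and 1.40 CPM, and H2-DMb1 at 0.866, 0.546 and 0.501 CPM. H2-DMa was found in 25.2% of spermatids-like cells in dEXO, 29.5% in EXO and 30.2% in PBS, and in 3.35%, 3.21% and 5.90% of Leydig-like cells. The median depth was 2555, 2706 and 2543 UMIs in spermatids-like and 14117.5, 18393.5 and 34154 UMIs in Leydig-like cells. With each cell thinned to 1000 UMIs, H2-DMa was in 41 of 820 spermatids-like cells in dEXO (5%), 32 of 493 in EXO (6.49%) and 5 of 86 in PBS (5.81%). In Leydig-like cells the thinned shares were 0.163%, 0.269% and 0.0740%.

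The proportions among the genes also differed between these classes. Of the class II UMIs of spermatids-like cells H2-DMa made up 35.4% in dEXO, 50.2% in EXO and 50.4% in PBS, and Cd74 11.1%, 5.14% and 4.37%. In Leydig-like cells Cd74 made up 41.8%, 38.6% and 40%, near the 41.5%, 43.1% and 45.1% of macrophage-like cells, and H2-DMa 7.38%, 10.1% and 16.4%. Of Tex36-led cells, 44.6% in dEXO, 43.6% in EXO and 45.8% in PBS had UMIs of H2-Ab1, H2-DMa or H2-DMb1 and none of H2-Aa, H2-Eb1 or Cd74. In macrophage-like cells that pattern was seen in 1.17%, 1.99% and 14.2%. Their median cell had 6.75%, 6.51% and 4.02% class II UMIs, so most could hardly lack H2-Aa, H2-Eb1 and Cd74. This contrast with Tex36-led cells therefore says little. The pattern was seen in 13.76%, 17.01% and 10.26% of a shallower spermatids-like cluster led by genes such as Gm42716. In a Leydig-like cluster led by Klk1 it was seen in 7.14%, 6.46% and 8.36%. Whether these differences follow depth was not tested. The 10 macrophage markers summed to 7.31, 8.62 and 17.2 CPM in Tex36-led cells of dEXO, EXO and PBS, against 190, 205 and 237 CPM in Leydig-like cells. The class II sum of Leydig-like cells had the opposite order of libraries, at 31.3, 19.7 and 10.4 CPM. In Sertoli-like cells the markers summed to 210, 201 and 203 CPM. How much of these marker sums is macrophage RNA was not tested.

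**Figure D4:**
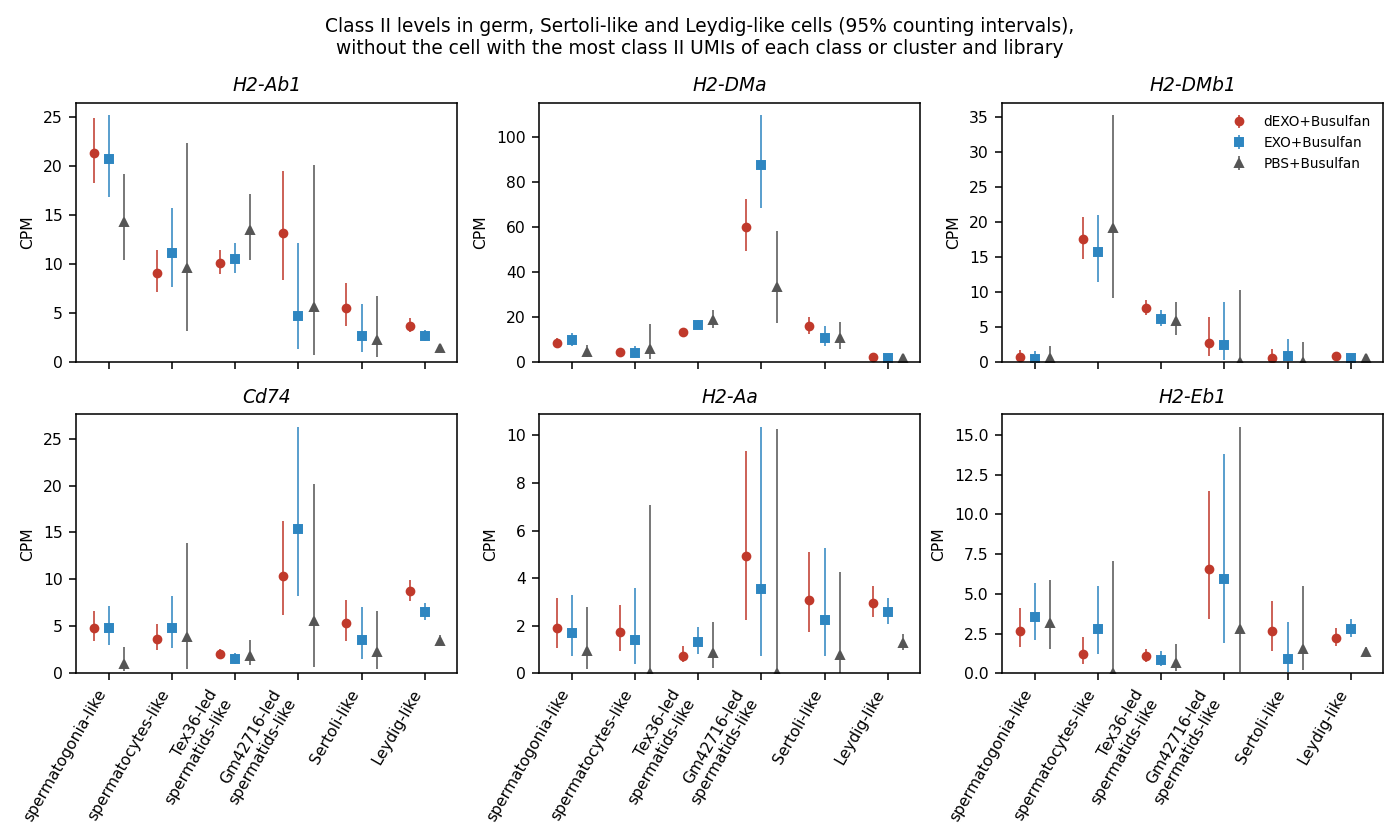
CPM of 6 class II genes in germ, Sertoli-like and Leydig-like cells of the dEXO, EXO and PBS libraries, with 95% counting intervals and without the cell with the most class II UMIs of each class or cluster and library. H2-DMa is highest in Gm42716-led spermatids-like cells (60.1, 87.5 and 33.4 CPM), H2-DMb1 in spermatocytes-like cells (17.5, 15.7 and 19.2 CPM) and, in dEXO and EXO, H2-Ab1 in spermatogonia-like cells (21.4 and 20.7 CPM).

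The leading gene among the 7 differed between the germ cell classes as clustered here. Among H2-DMa, H2-Ab1, H2-DMb1 and Cd74, H2-DMa led in spermatids-like cells of each library under each setting tried, and the leads in the other germ cells did not hold under all of them. In the other cluster of spermatids-like cells, led by uncharacterised genes such as Gm42716 and shallow (median depth 1352, 1422 and 938 UMIs), H2-DMa was at 58.4 CPM in dEXO, 87.3 in EXO and 49.3 in PBS. It made up 57.9%, 73.3% and 75.9% of the class II UMIs there. In spermatocytes-like cells H2-DMb1 led, at 17.5 CPM in dEXO (143 UMIs), 17.3 in EXO (52) and 22.6 in PBS (21), or 42.8%, 39.4% and 46.7% of the class II UMIs. H2-DMa was at 4.53, 5.98 and 5.39 CPM in the same cells, so the DM alpha and beta transcripts were not matched in either class. The lead was lost in dEXO and EXO at clustering resolution 2, where H2-Ab1 was at 16.5 and 22.7 CPM and H2-DMb1 at 15.5 and 13.9 CPM. As a mean of single cells H2-DMb1 was at 7.36 CPM in dEXO and 8.98 in EXO, below Cd74 at 19.8 and 19.99 CPM, and in PBS it was below H2-DMa. Of the PBS spermatocytes-like cells 1 held 25 of 45 class II UMIs, and without the cell with the most class II UMIs in each library H2-DMb1 was at 17.5, 15.7 and 19.2 CPM.

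In spermatogonia-like cells H2-Ab1 was at 22.8 CPM in dEXO, 22.9 in EXO and 63.3 in PBS. It led in dEXO and EXO, and in PBS Cd74 did, with 38.4% of the class II UMIs against 20.96% for H2-Ab1. The PBS values rested on 1 of 114 cells, which held 878 of the 959 class II UMIs (91.6%). Without the cell with the most class II UMIs in each library H2-Ab1 was at 21.4 CPM in dEXO (18.3 to 24.9), 20.7 in EXO (16.8 to 25.2) and 14.3 in PBS (10.5 to 19.2). It then led in every library, at 53.2%, 50.0% and 55.6% of the class II UMIs, with Cd74 at 12.0%, 11.6% and 3.70%. In dEXO Cd74 led instead under 3 other settings, at 54.9 CPM against 41 CPM for H2-Ab1 with cells of at least 1000 UMIs. The interval of H2-Ab1 lay above that of the Tex36-led spermatids-like cells in dEXO and EXO, and in PBS the intervals overlapped (10.5 to 19.2 CPM in spermatogonia-like and 10.4 to 17.2 CPM in Tex36-led cells).

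**Figure D5:**
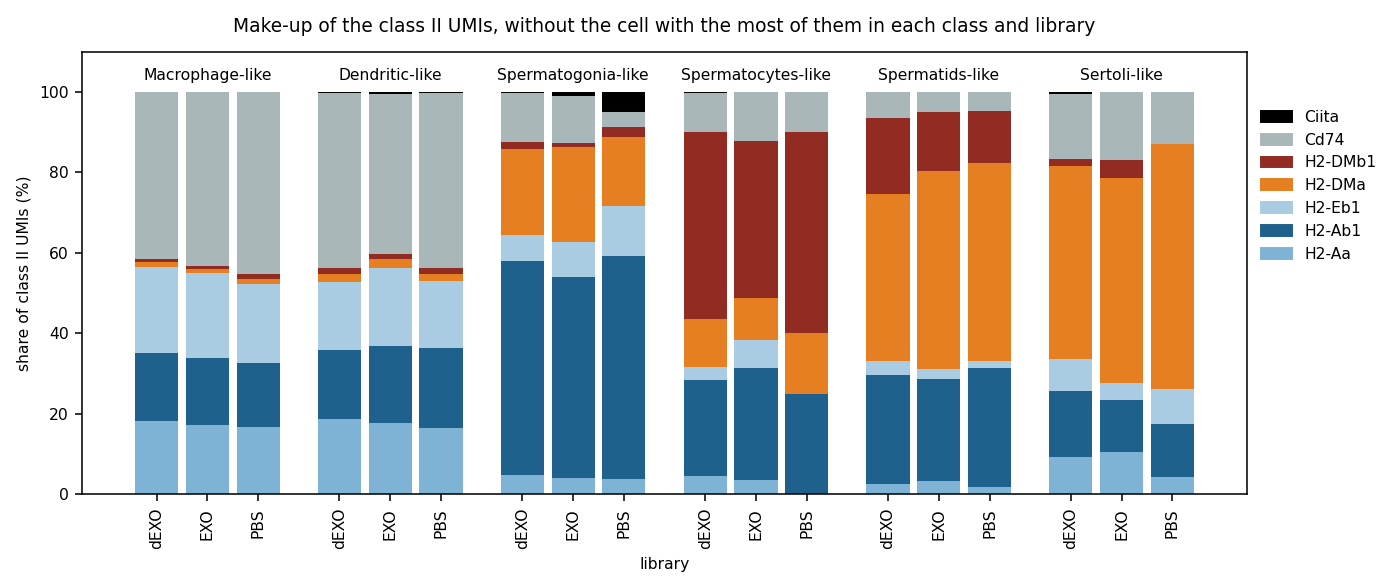
Share of each of the 7 genes in the class II UMIs of 6 cell classes, by library (dEXO, EXO, PBS), without the cell with the most class II UMIs in each class and library. Cd74 and the I-A and I-E chains fill the macrophage-like and dendritic-like bars, H2-Ab1 leads in spermatogonia-like cells (53.2%, 50.0% and 55.6%), H2-DMb1 in spermatocytes-like cells (46.3%, 39.1% and 50.0%) and H2-DMa in spermatids-like cells (41.4%, 49.3% and 49.1%).

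Sertoli-like cells, the nurse cells of the tubule, had H2-DMa as their leading class II gene, at 15.97 CPM in dEXO (12.6 to 19.9), 12.5 in EXO (8.29 to 18.0) and 14.95 in PBS (9.13 to 23.1), with overlapping intervals. It made up 43.8%, 54.9% and 69.0% of their class II UMIs. It was found in 9.75% of cells in dEXO, 9.48% in EXO and 11.1% in PBS, at median depths of 4254, 5314 and 6207 UMIs. H2-DMb1 had 3, 2 and 0 UMIs. Brd2, the gene that overlaps H2-DMa, was at 232 CPM in dEXO, 200 in EXO and 217 in PBS Sertoli-like cells and at 126, 120 and 115 CPM in Leydig-like cells. It was at 220, 140 and 162 CPM in spermatids-like, 295, 235 and 269 CPM in spermatocytes-like and 311, 315 and 303 CPM in spermatogonia-like cells. Whether reads of Brd2 add to the H2-DMa counts was not tested.

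Leydig-like and stromal-like cells showed the chains and Cd74 at trace levels that were higher in dEXO and EXO than in PBS. The sum was 31.3 CPM in dEXO, 19.7 in EXO and 10.4 in PBS Leydig-like cells. H2-Aa was at 5.77, 3.07 and 1.30 CPM, a log2 ratio of 2.16 for dEXO to PBS (1.72 to 2.60) and 1.25 for EXO to PBS (0.78 to 1.72). Cd74 was at 13.1, 7.61 and 4.18 CPM, with ratios of 1.64 and 0.86. Of 5 measured class II genes 4 were at least 2-fold higher in dEXO than in PBS, where 11.6% of all genes of the class were higher and 1.65% lower. For EXO to PBS 3 of 5 were higher (6.66% of all genes, with 1.27% lower), and for dEXO to EXO 0 of 5 (7.12%, with 0.834% lower). H2-DMa was the exception, with ratios of 0.43 (-0.065 to 0.92) and 0.21 (-0.27 to 0.69).

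These trace levels moved with other things. Different clusters held most Leydig-like cells in dEXO and in PBS: the Hsd3b1-led cluster held 1428 cells in dEXO, 707 in EXO and 100 in PBS, and the Klk1-led cluster 70, 789 and 1088. Within the Hsd3b1-led cluster the class II sum was at 17.3 CPM in dEXO, 15.1 in EXO and 24.7 in PBS, a log2 ratio of -0.52 for dEXO to PBS (-0.87 to -0.15), the reverse of the class. There 1 of 100 PBS cells held 36 of 78 class II UMIs, and without the cell with the most in each library the sums were 15.96, 14.2 and 13.5 CPM and the ratio 0.24 (-0.22 to 0.74). In the Klk1-led cluster the sums were 15.01 CPM in dEXO (8.21 to 25.2, on 14 UMIs), 13.2 in EXO and 9.41 in PBS. The log2 ratio for dEXO to PBS there was 0.67 (-0.21 to 1.44), an interval that includes no difference. A smaller Leydig-like cluster, led by Svs5, had the highest level, at 122 CPM in dEXO, 59.3 in EXO and 10.997 in PBS, and its 256 dEXO cells held 424 of the 867 class II UMIs of dEXO Leydig-like cells. Without the cell with the most class II UMIs in each library the Svs5-led sums were 40.1, 30.3 and 9.70 CPM. In dEXO 1 Leydig-like cell held 286 of these 867 UMIs. Without the top cell of each library the sums over all Leydig-like cells were 20.98, 17.1 and 9.70 CPM, the log2 ratio for dEXO to PBS was 1.11 (0.93 to 1.29), and H2-Eb1 was at 2.24 CPM in dEXO, 2.79 in EXO and 1.32 in PBS. With cells of at most 10% mitochondrial UMIs the dEXO to PBS ratio in Leydig-like cells was 0.28 for H2-Aa, 0.076 for H2-Ab1, 0.30 for H2-Eb1 and 0.45 for Cd74. Stromal-like cells had a sum of 30.7 CPM in dEXO, 28.0 in EXO and 14.1 in PBS, with overlapping intervals in dEXO and EXO (26.4 to 35.4 and 24.9 to 31.4 CPM), and 2 of 3 measured class II genes were 2-fold higher in dEXO than in PBS (11.1% of all genes, with 0.308% lower). For EXO to PBS 2 of 5 were (8.4%, with 0.342% lower) and for dEXO to EXO 0 of 5 (5.96%, with 0.29% lower). Cd74 was found in 6.32% of Leydig-like cells in dEXO, 6.58% in EXO and 8.49% in PBS, an order of the libraries that goes against the CPM, at the higher depth of PBS. Among the rare classes, NK-like cells had 10 class II UMIs in dEXO, 11 in EXO and 2 in PBS, and peritubular myoid-like cells 2, 2 and 0. Endothelial-like cells had 5, 38 and 332, of which 331 in PBS lay in 1 of 4 cells.

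Over 23 points of a class and a library, the log2 CPM of 23492 genes was compared with that of the class II sum. The 5 genes outside the 7 with the largest Pearson correlation were Ebi3 (0.982), Ms4a6c (0.976), Cd86 (0.975), Bcl2a1a (0.974) and Spi1 (0.968). Of the 7 genes themselves, H2-DMa (0.935) and H2-DMb1 (0.887) followed the sum least closely. Each of the 7 is part of the sum, and Cd74 and the chains make up most of it, so this order is partly built in. Points needed at least 50 cells, which left out the dendritic-like class. The points share libraries and depth, and the correlations describe these libraries.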

How the data were processed

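The libraries were made with the 10x Genomics 3' V3 chemistry, per the labels' protocols. The authors deposited filtered matrices of whole-number UMI counts per gene and barcode, which Cell Ranger 5.0.1 wrote, per the file headers. GRCm38 as the build and Seurat as a further tool come from the submitters' processing notes. The aligner and the handling of strand and of multimapped reads are not given in the sources used here. Groups come from the treatment label, with 1 library in each of 3 groups, and 0 per-sample columns were left unused.

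Cells needed 500 UMIs, 300 genes and at most 20% mitochondrial UMIs. Scrublet scores were computed in scanpy 1.11.5, and called doublets (172 in dEXO, 2 in EXO and 4 in PBS) were removed. The calls did not work in EXO and PBS, since loading alone would give 7.81%, 8.18% and 4.41% doublets, so doublets remain. Counts per 10000 UMIs were log-transformed, and 2000 variable genes without the class II genes gave 30 principal components, 15 neighbours and Leiden clusters at resolution 1 (igraph 0.11.9). Clusters averaging at least 0.5 UMIs per 10000 of the immune gene Ptprc were pooled and clustered again in the same way. A cluster was named from marker lists when at least 3 markers were raised 2-fold, its leading genes were detected in at least 10% of its cells and did not belong to another class, and it did not score for 2 unrelated classes; these naming details were set after clusters had been seen.

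Levels are UMIs per 1000000 (CPM) of raw UMIs summed over a class and library. Levels have exact Poisson intervals, shares exact Clopper-Pearson intervals, and log2 ratios exact conditional binomial intervals, all at 95%. Reads of 1 library are not replicates, so no p-value is given. Ratios were computed for genes with 50 UMIs over a pair and classes with 50 cells in both libraries (clusters were added as a description); 2-fold was the size used for counting. Shares of cells were repeated with cells thinned to 1000 UMIs. The procedure was checked on simulated data. Of each pathway list up to 3 genes per pair with the interval bound farthest from 0 in macrophage-like cells could be named, plus class II genes outside the 7 and the 5 genes most like the sum; Ctss, Irf1, Cd83 and Spi1 values within the Mgl2-led cluster were chosen after the cluster was seen. The genes and lists were chosen with earlier results of these data known. The alternatives tried were class II genes kept in the clustering, other doublet, mitochondrial and depth limits, resolution 2, thinning, means of single cells, ratios relative to the median gene and ratios with no minimum of UMIs. Added after seeing the data were the mixed cluster counted as macrophages, the Mgl2-led cluster alone and the removal of the cell with the most class II UMIs. 1 further gene of a pathway list is not reported here.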

Additional observations from a re-analysis of the deposited data

Results flagged for a closer look

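In each result here the class II sum went one way between a pair of libraries in some cells and the other way in macrophage-like cells or in their Mgl2-led cluster; with 1 library per group the difference was not tested. For dEXO to PBS the log2 ratio was -2.85 in spermatogonia-like cells and 0.51 in macrophage-like cells, and for EXO to PBS it was -2.58 and 0.64. Without the cell with the most class II UMIs in each library the spermatogonia-like ratios were 0.64 (0.28 to 1.01) and 0.68 (0.30 to 1.07), the direction of the macrophage-like cells, so these flags rest on 1 PBS cell. For dEXO to EXO the ratio was 0.67 in Leydig-like, 0.68 in Sertoli-like and 1.92 in T-like cells against -0.14 in macrophage-like cells. Without the top cells these were 0.30 (0.13 to 0.46), 0.67 (0.19 to 1.17) and 2.17 (1.94 to 2.41), against -0.13. The T-like value rests on few cells: without the cells of at least 1% class II UMIs it was 0.16 (-0.31 to 0.63).

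Within the macrophage-like class, the Folr2-led cluster was at 1.67 for dEXO to PBS and 1.54 for dEXO to EXO, where the Mgl2-led cluster was at -0.12 and -0.11. Without the top cells the Folr2-led ratios were 2.11 (1.91 to 2.31) and 1.72 (1.40 to 2.05), on 26 cells in dEXO, 28 in EXO and 48 in PBS. The larger unnamed F13a1-led cluster, with Folr2 and Stab1 also among its leading genes, was at 3099 CPM in dEXO, 3137 in EXO and 2278 in PBS.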

How the results depend on the processing

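The class II sum in macrophage-like cells kept its direction against PBS in all settings but the Mgl2-led cluster alone. For dEXO to PBS (0.51) the log2 ratio was 0.68 with class II genes kept in the clustering, 0.54 with no doublets removed, 0.76 with the highest doublet scores removed, 0.48 at most 10% mitochondrial UMIs, 0.77 at 1000 UMIs or more, 0.59 at resolution 2, 0.42 as a mean of single cells and -0.12 in the Mgl2-led cluster. For EXO to PBS (0.64), in the same order but without the mitochondrial limit, it was 0.70, 0.69, 0.78, 0.75, 0.74, 0.44 and -0.011, and 0.54 after thinning, 0.74 relative to the median gene and 0.80 with the mixed cluster counted. The dEXO to EXO ratio (-0.14) was -0.027 with class II genes kept, -0.021 with the highest doublet scores removed, 0.021 at 1000 UMIs or more, -0.035 after thinning, -0.020 as a mean of single cells, -0.23 relative to the median gene, -0.31 with the mixed cluster and -0.11 in the Mgl2-led cluster. The cause of these shifts was not tested.

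The share of class II UMIs in macrophage-like and dendritic-like cells (68.2% in dEXO, 74.5% in EXO and 70.05% in PBS) was 69.3%, 76.3% and 73.1% with class II genes kept, 66.7%, 75.2% and 72.4% with no doublets removed, and 83.5%, 89.2% and 91.0% with the highest doublet scores removed. It was 60.7%, 62.6% and 52.6% at most 10% mitochondrial UMIs, where no dendritic-like class was named, 71.0%, 80.3% and 75.7% at 1000 UMIs or more, and 72.2%, 81.4% and 76.1% at resolution 2. It was 87.2%, 88.9% and 90.3% after thinning and 82.7%, 85.6% and 82.8% with the mixed cluster of 247 cells counted.

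Of 1337 values of single genes under these settings 926 stayed within their counting interval, 405 moved past it and 6 were counted as changed in sign. A change of sign was counted only for log2 ratios whose main interval excluded 0, and most of the values are levels, which have no sign. The 926 include 48 ratios taken with no minimum of UMIs, which equal the main values by construction. The 6 were all for dEXO to EXO: H2-Ab1 in Leydig-like cells at most 10% mitochondrial UMIs (-0.16), H2-Ab1 in macrophage-like cells at 1000 UMIs or more (0.032), and H2-Eb1 in macrophage-like cells with class II genes kept (0.00061), with the highest doublet scores removed (0.0073), at 1000 UMIs or more (0.032) and as a mean of single cells (0.0047). Leads among germ cells changed too. In spermatogonia-like cells of dEXO Cd74 passed H2-Ab1 with class II genes kept (47.5 against 37.9 CPM), with no doublets removed (29.6 against 29.1) and at 1000 UMIs or more (54.9 against 41). In spermatocytes-like cells H2-DMb1 lost its lead at resolution 2 in dEXO and EXO, as a mean of single cells in each library, and after thinning, where H2-Ab1 equalled it in dEXO (11.4 CPM), passed it in EXO (14.9 against 9.95) and PBS was left without H2-DMb1. No paired analysis was possible because each group has 1 library. Depth limits Ciita everywhere and H2-DMb1 outside immune and germ cells; undetected doublets, RNA of burst cells and cell naming limit every low level given here.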

Other observations

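B cells, which also present antigen through class II, formed no cluster. Cells with UMIs of at least 3 of 6 B cell markers numbered 3 in dEXO, 2 in EXO and 2 in PBS. Their class II sum was 4003 CPM in dEXO, 7808 in EXO and 3320 in PBS, on 101, 157 and 134 UMIs, and Cd74 led at 57, 87 and 80 UMIs. A Foxp3-led cluster of T-like cells (18, 30 and 5 cells) had 9, 20 and 1 UMIs of Cd74 and 0, 1 and 0 of H2-Aa.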
